A study of Rattus norvegicus with 6 samples.

Results

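miR-21 and miR-210 are miRNAs long linked to ischemia and to low oxygen, and each is cut from a stem-loop that yields a 5p and a 3p arm. All 4 arms, rno-miR-21-5p, rno-miR-21-3p, rno-miR-210-3p and rno-miR-210-5p, were found by name among the 763 mature rat miRNAs of the deposited counts, and 3 of them passed the filter on low counts that 404 miRNAs passed in all. They were measured by small RNA sequencing of plasma exosomes, small membrane vesicles that carry RNA in blood. Control-exosomes (C-exo, 3 libraries) came from male Sprague-Dawley rats, 7 to 8 weeks old by the study's methods, without limb ischemia. RIPC-exosomes (R-exo, 3 libraries) came from rats of the same strain, sex and age in the late phase after remote ischemic pre-conditioning (RIPC), 48 h after 4 cycles of 5 min ischemia and 5 min reperfusion of both hind limbs. Rats of both groups were under anesthesia when blood was drawn, and the labels do not say whether the controls were also anesthetized at the time of the limb protocol. The labels do not say how many rats gave each library, so p-values measure the spread between these libraries, which may be partly technical.

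miR-21 is present in most tissues, is induced in injured and stressed cells, and represses Pdcd4, an inhibitor of translation that favours apoptosis. miR-210 is a direct target of hypoxia-inducible factor and represses Iscu, an iron-sulfur cluster scaffold of the mitochondria, which lowers respiration when oxygen is scarce. In each stem-loop 1 arm, the guide, is loaded into Argonaute and accumulates, while the other, the passenger, is mostly degraded. The guide is the 5p arm for miR-21 and the 3p arm for miR-210. The question here was how these arms stood in plasma exosomes with and without late-phase RIPC.

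The mature sequences of all 4 arms, from RefSeq for the rat assembly GRCr8, are shown because their seeds and their base composition bear on the results. Capitals mark the seed, bases 2 to 8, through which a miRNA pairs with its targets.
rno-miR-21-5p: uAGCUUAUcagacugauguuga
rno-miR-21-3p: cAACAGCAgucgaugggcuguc
rno-miR-210-3p: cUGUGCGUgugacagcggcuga
rno-miR-210-5p: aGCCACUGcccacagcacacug
Each arm is 22 bases long. GC content was 36.4% in miR-21-5p, 59.1% in miR-21-3p and 63.6% in each arm of miR-210. None of the other miRNAs of the table with a sequence shared a seed with any of the 4 arms. The nearest of the 685 sequences compared was 7 edits away from miR-21-5p (miR-101a-5p) and 9 edits away from miR-210-3p (miR-34a-5p), where an edit is 1 base changed, added or removed. How reads that match more than 1 miRNA were counted is not given in the sources used here.

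The stem-loops from the same source are shown to place the arms, which are in capitals.
Mir21 stem-loop: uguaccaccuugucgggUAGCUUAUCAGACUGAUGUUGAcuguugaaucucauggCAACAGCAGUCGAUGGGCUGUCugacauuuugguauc
Mir210 stem-loop: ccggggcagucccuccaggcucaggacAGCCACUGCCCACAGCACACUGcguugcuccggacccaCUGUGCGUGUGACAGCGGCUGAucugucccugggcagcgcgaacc
In GRCr8 the Mir21 stem-loop of 92 bases lies on the minus strand at chr10:71902600-71902691, between Tubd1 and Vmp1, and overlaps no other gene of the RefSeq table. The Mir210 stem-loop of 110 bases lies on the minus strand at chr1:205755923-205756032, within the span of the long non-coding RNA gene LOC102553043 and between Rassf7 and Phrf1. The labels name the older build rn6, and the deposited table carries no coordinates. Mir3574 overlaps Mir210 on the opposite strand, and miR-3574 is the exact reverse complement of miR-210-3p. miR-3574 had 0 counts in all 6 libraries, which allows a level of up to 0.369 to 0.672 CPM (3 counts in a library).

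The reads counted on miRNAs numbered between 5484209 and 7531737 per library. Levels are CPM, counts per 1000000 counts of the library after scaling by TMM factors, and they give the share of a miRNA among the miRNA reads, not its amount per vesicle or per ml of plasma. C-exo replicate 3 stood apart from its group. Over the 404 tested miRNAs its Spearman correlation with the R-exo libraries, across miRNAs and not across independent samples, was 0.965 to 0.983, and its lowest within C-exo was 0.902. Results that rest on this library are given with and without it.

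miR-21-5p, the guide, was among the most abundant miRNAs of plasma exosomes. It had 6379, 6349 and 26262 CPM in C-exo replicates 1, 2 and 3 and 21927, 26968 and 31320 CPM in R-exo replicates 1, 2 and 3. C-exo replicates 1 and 2 were low and almost equal, whereas C-exo replicate 3 lay inside the range of the R-exo libraries, so the groups overlapped. As a share of all miRNA counts it was 0.519% and 0.706% in C-exo replicates 1 and 2, 2.45% in C-exo replicate 3 and 2.53% to 3.22% in R-exo. Each share rested on at least 28460 reads. Its rank by level was 25, 23 and 9 among the miRNAs of C-exo replicates 1, 2 and 3, against 13, 9 and 9 for R-exo.

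The mean level of miR-21-5p was 12996 ± 11488 CPM in C-exo and 26738 ± 4701 CPM in R-exo (SD, n = 3 each), a fold change of 2.06. The log2 fold change was 1.04 with a standard error of 0.60 (95% confidence interval -0.30 to 2.38, unadjusted p = 0.11 and adjusted p = 0.51 by the edgeR quasi-likelihood fit, adjusted after Benjamini and Hochberg). The difference of the means exceeded the SD of either group but did not pass the test. Within C-exo the highest library exceeded the lowest 4.14-fold, against 1.43-fold in R-exo. The exact two-sided permutation test of the log2 level gave p = 0.2, where 0.1 is the smallest that 3 against 3 allows. In these pooled vesicles, fewer vesicles that carry a miRNA and fewer copies per vesicle cannot be told apart.

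miR-21-3p, the passenger of the same stem-loop, was rare. Its C-exo levels were 2.47, 5.76 and 5.97 CPM and its R-exo levels 6.28, 7.03 and 5.94 CPM, in the order of the replicates, from 11, 45, 42, 51, 49 and 45 reads. Only C-exo replicate 1 was low, and the other 5 libraries lay close together. The Wilson 95% interval of C-exo replicate 1, 1.12 to 3.59 CPM before TMM scaling, lay below those of the other libraries, the lowest of which began at 4.13. Such intervals cover counting error only, and the sources used here mention no molecular identifiers for the PCR reads. The log2 fold change was 0.43 with a standard error of 0.55 (95% confidence interval -0.81 to 1.67, adjusted p = 0.72 by the same edgeR fit). It was 0.07 without C-exo replicate 1.

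miR-210-3p, the hypoxia-induced guide, lay lower in R-exo on average. It had 373, 182 and 71.8 CPM in C-exo replicates 1, 2 and 3 and 124, 81.1 and 82.3 CPM in R-exo replicates 1, 2 and 3. The C-exo libraries held both the highest and the lowest level of all 6, so every R-exo library lay within the range of the controls. C-exo replicate 3 was again on the side of the R-exo libraries. The means were 209 ± 153 CPM in C-exo and 95.9 ± 24.6 CPM in R-exo (SD, n = 3 each). The log2 fold change was -1.12 with a standard error of 0.60 (95% confidence interval -2.46 to 0.22, unadjusted p = 0.091 and adjusted p = 0.47 by the same edgeR fit). Exact permutation, two-sided, gave p = 0.4. Counting error was small beside this spread, since each library held at least 505 reads of miR-210-3p. Leaving out C-exo replicate 1, the highest, moved the log2 fold change to -0.51.

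miR-210-5p, the passenger, was at the edge of detection, with 8, 8 and 7 reads in C-exo and 6, 1 and 4 reads in R-exo. This made 1.79, 1.02 and 0.996 CPM for C-exo, against 0.739, 0.144 and 0.528 CPM for R-exo. The groups did not overlap (exact two-sided permutation p = 0.1), which also held for 11.4% of the 598 miRNAs with any count. The Wilson intervals of neighbouring libraries overlapped widely, at 0.450 to 1.92 CPM before TMM scaling in C-exo replicate 3 and 0.391 to 1.86 in R-exo replicate 1. The exact p of 0.1 is the smallest that 3 against 3 allows. miR-210-5p did not pass the filter on low counts. Without a filter its log2 fold change was -1.34 with a standard error of 1.11 (unadjusted p = 0.23 and adjusted p = 0.61 by the edgeR quasi-likelihood fit). So few reads cannot show whether this arm differed between the groups.

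**Figure D1:**
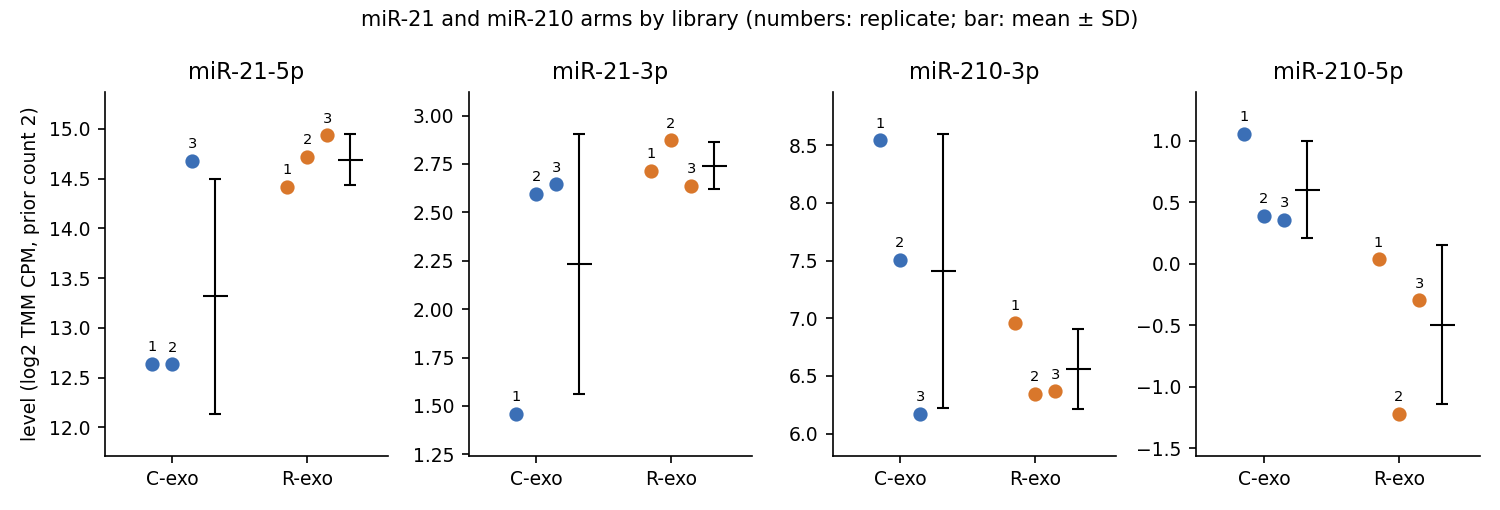
Level of each arm (y axis, log2 TMM CPM with a prior count of 2) in the 3 C-exo and 3 R-exo libraries, where points are libraries with their replicate number and bars are the mean ± SD. C-exo replicate 3 sits with the R-exo libraries for miR-21-5p and miR-210-3p, and only for miR-210-5p, at 1 to 8 reads, do the groups not overlap.

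Of the 3 arms tested, 0 had an adjusted p under 0.05, and so had 0% of the 404 tested miRNAs, of which 38 had an unadjusted p under 0.05. The study called miRNAs by more than a 2-fold change at p below 0.05 and does not say whether p was adjusted. By this criterion of the study, with p taken here as unadjusted, again 0 of the 3 were called. By that criterion 1.98% of the tested miRNAs were higher and 7.43% lower in R-exo. miR-21-5p and miR-210-3p each had a fold change over 2, in opposite directions, but missed on p in this fit. miR-21-5p met the criterion in 3 other fits of all 6 libraries, with limma-voom (log2 fold change 1.37, unadjusted p = 0.041), with the replicate number as a block (1.39, unadjusted p = 0.036) and without the filter on low counts (1.08, unadjusted p = 0.0497), and in none of them was its adjusted p under 0.05.

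Without C-exo replicate 3 both guides passed the test. The log2 fold change of miR-21-5p was then 2.08 (standard error 0.37, adjusted p = 0.0041) and that of miR-210-3p was -1.52 (standard error 0.44, adjusted p = 0.020), both by the edgeR quasi-likelihood fit of 2 C-exo and 3 R-exo libraries. In that fit 17.3% of 422 tested miRNAs were called higher and 14% lower in R-exo, so that calls were common among all miRNAs once this library was left out. In no other fit that left out 1 library was an arm called. The labels give C-exo replicate 3 as a control like the other 2, and whether it was labelled or prepared differently was not tested, so that every C-exo mean carries this doubt.

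Ratios within a library do not depend on how libraries are scaled. A ratio of miRNAs that differ in GC content still carries any difference between libraries along GC content, described below. The guides differ so, at 36.4% for miR-21-5p and 63.6% for miR-210-3p. For each read of miR-210-3p there were 17.1, 34.9 and 366 reads of miR-21-5p in C-exo replicates 1, 2 and 3 and 176, 332 and 380 in R-exo replicates 1, 2 and 3. The ratio was low in C-exo replicates 1 and 2 and high in the other 4 libraries. On the log2 scale, with 0.5 added to each count, it was 5.91 ± 2.31 in C-exo and 8.14 ± 0.59 in R-exo (SD, n = 3 each), a difference of 2.22 (exact two-sided permutation p = 0.3). The difference was 1.32 without C-exo replicate 1, 1.83 without C-exo replicate 2 and 3.53 without C-exo replicate 3.

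The guide exceeded the passenger in every library. miR-21-5p had 2587, 1102 and 4396 reads for each read of miR-21-3p in C-exo and 3492, 3834 and 5276 in R-exo. The log2 ratio was 11.15 ± 1.003 in C-exo and 11.998 ± 0.31 in R-exo (SD, n = 3 each), a difference of 0.85 (exact two-sided permutation p = 0.3). It was 1.32 without C-exo replicate 3 and 0.32 without C-exo replicate 2. miR-210-3p had 208, 177 and 72.1 reads for each read of miR-210-5p in C-exo and 168, 565 and 156 in R-exo, and the value of 565 rested on 1 read of the passenger. The log2 ratio was 7.02 ± 0.83 in C-exo and 7.65 ± 0.79 in R-exo (SD, n = 3 each), a difference of 0.63 (exact two-sided permutation p = 0.6). It was 0.15 without C-exo replicate 3 and 0.17 without R-exo replicate 2. The arm ratios of both stem-loops overlapped between groups. Adaptor ligation captures each sequence with its own efficiency, so ratios between arms are those of reads and not of molecules.

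**Figure D2:**
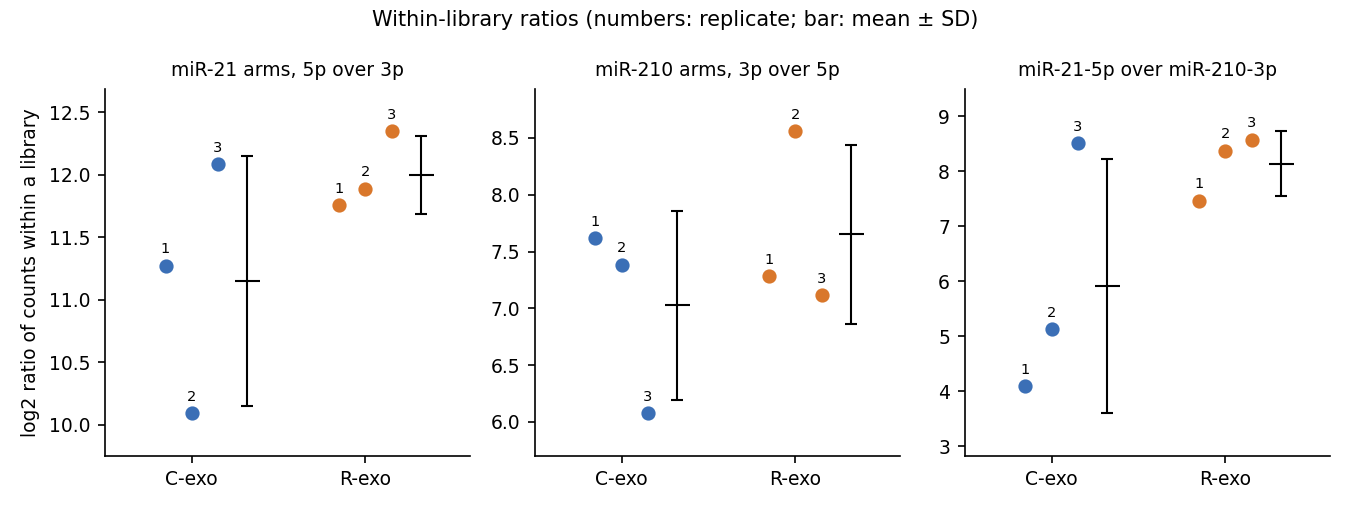
Log2 ratio of counts within each library (y axis) for the arms of miR-21, the arms of miR-210 and the guides of both stem-loops, where points are libraries with their replicate number and bars are the mean ± SD. In the right panel C-exo replicates 1 and 2 lie at 4.09 and 5.13 and the other 4 libraries between 7.46 and 8.57.

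The direction of the guides went with base composition. RefSeq held the mature sequence of 364 tested miRNAs, 90.1% of the 404. By counts the coverage was uneven. All listed miRNAs with a sequence held 68.5% of the counts in C-exo replicate 1 and 77.2% in C-exo replicate 2. In the other libraries they held 86.1% to 87.0%. The median log2 fold change of R-exo over C-exo was 0.63 for the 67 miRNAs with a GC content under 40%, 0.23 for 122 from 40% to under 50%, -0.33 for 120 from 50% to under 60% and -1.02 for 55 of 60% and over. Of these miRNAs, 85.1% had a log2 fold change above 0 in the lowest GC class and 10.9% in the highest. miR-21-5p belonged to the lowest class and miR-210-3p to the highest, and each had the sign of most of its class. miR-21-3p, at 59.1% GC, did not: its log2 fold change was above 0, as in 38 of the 120 miRNAs of its class.

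The same gradient separated the libraries. Relative to its mean over the 6 libraries, a miRNA of the highest GC class had a median log2 level of 1.05 in C-exo replicate 1 and 0.41 in C-exo replicate 2. In C-exo replicate 3 this was -0.40, within the R-exo range of -0.47 to -0.18. In the lowest GC class the medians were -0.84 and -0.79 in C-exo replicates 1 and 2 and 0.24 to 0.58 in the other 4 libraries. C-exo replicates 1 and 2 thus held relatively more GC-rich and fewer GC-poor miRNAs than the other libraries.

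When the trend of each library with GC content was taken into the edgeR fit, a correction chosen after the data were seen, the guides moved toward 0. The log2 fold change of miR-210-3p went from -1.12 to -0.21 (standard error 0.39, adjusted p = 0.84) and that of miR-21-5p from 1.04 to 0.56 (standard error 0.36, adjusted p = 0.62). That of miR-21-3p went from 0.43 to 0.77 (standard error 0.61, adjusted p = 0.65 in the same edgeR test). With the correction and without C-exo replicate 3, the value for miR-21-5p was 0.89 (standard error 0.30, unadjusted p = 0.014, adjusted p = 0.080) and that for miR-210-3p was -0.45 (standard error 0.35, adjusted p = 0.39 in the same edgeR test). The 364 miRNAs fitted without the correction gave the same 1.04 and -1.12 as all 404. The correction takes out any difference between libraries that runs along GC content, and the origin of the gradient was not tested.

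**Figure D3:**
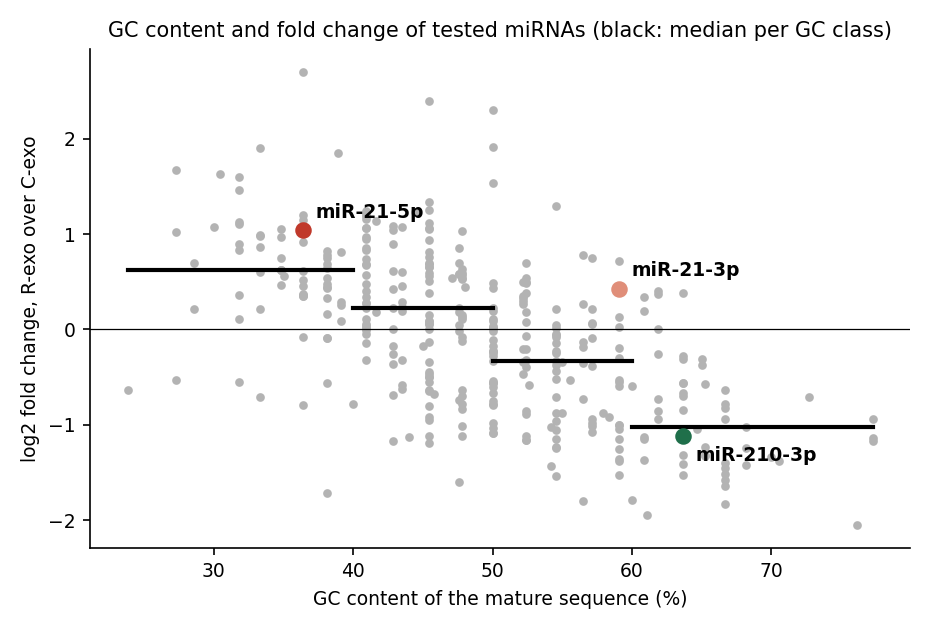
GC content of the mature sequence in percent (x axis) and log2 fold change of R-exo over C-exo (y axis) for the 364 tested miRNAs with a sequence. Points are miRNAs and black lines are medians of the 4 GC classes, which step from 0.63 down to -1.02, with miR-21-5p in the lowest and miR-210-3p in the highest class.

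The profiles most like each guide over the 6 libraries were found by the root mean square difference of log2 CPM after each miRNA was centred on its own mean. Nearest to miR-21-5p were miR-340-5p at 0.12, miR-9a-3p at 0.19 and miR-26b-5p at 0.20 on the log2 scale, against a median of 1.09 over the tested miRNAs. Their GC content was 27.3%, 31.8% and 33.3%. miR-340-5p, the closest, had C-exo levels of 141, 177 and 681 CPM and R-exo levels of 509, 736 and 786 CPM. Nearest to miR-210-3p were miR-874-3p at 0.11, miR-139-3p at 0.13 and miR-320-3p at 0.15, against a median of 0.95. GC content was 77.3% for miR-874-3p and 68.2% for miR-139-3p. miR-874-3p had C-exo levels of 240, 131 and 44.2 CPM and R-exo levels of 72.8, 51.3 and 59.9 CPM.

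By mean level over the 6 libraries miR-21-5p ranked 15, just below miR-99a-5p with 23461 CPM and just above miR-191a-5p with 17823 CPM. The mean of miR-99a-5p was higher in C-exo (29409 ± 6191 CPM) than in R-exo (17512 ± 2808 CPM; SD, n = 3 each), opposite in order to miR-21-5p. miR-210-3p ranked 148, between miR-125a-3p with 169 CPM and miR-32-5p with 147 CPM. miR-21-3p ranked 321, between miR-188-5p with 5.82 CPM and miR-23b-5p with 5.46 CPM, and miR-210-5p ranked 439.

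Other hypoxia-linked miRNAs were taken from a list of 24 guide strands, all of which passed the filter. The list was chosen with earlier results of these data known and holds related miRNAs as separate members. Its share above 0 is a description and no test of a shift of the list. Of the 24, 0 had an adjusted p under 0.05 and 1 met the criterion of the study, miR-125b-5p, which was lower in R-exo, where 7.43% of all tested miRNAs were called lower and 1.98% higher. miR-125b-5p, a miRNA linked to the control of apoptosis, had a log2 fold change of -1.09 with a standard error of 0.42 (adjusted p = 0.46 in the edgeR test of all 6 libraries). In the list 17 had a log2 fold change above 0 and 7 below, with a median of 0.51, where 197 of all 404 tested miRNAs were above 0 with a median of -0.05. The list followed GC content as well, since 13 of its 15 members under 50% GC had a log2 fold change above 0 but 2 of the 7 at 50% and over. With the GC correction 17 of 22 were above 0 with a median of 0.42, and the median of all 364 miRNAs was -0.07. Without C-exo replicate 3 again 17 of 24 were above 0, with a median of 0.75, and by edgeR's adjusted p 7 were called higher and 0 lower, beside the 17.3% and 14% of all miRNAs in that fit. miR-125b-5p did not meet the criterion of the study in that fit. With the GC correction, the edgeR fit without C-exo replicate 3 called 3 of 22 higher and 0 lower by adjusted p. Of all 381 miRNAs in it, 12 were called higher and 18 lower. In the fit of all 6 libraries without the correction, miR-21-5p had a log2 fold change within the range of the list. That of miR-210-3p lay below it, beside that of miR-125b-5p.

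**Figure D4:**
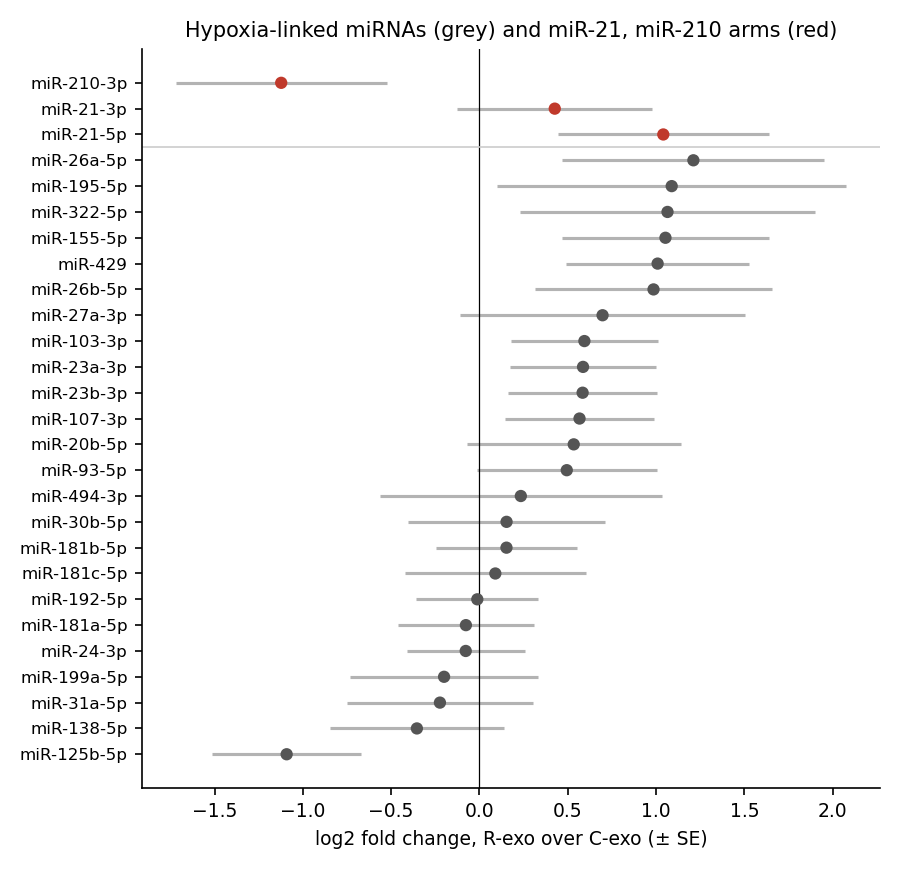
Log2 fold change of R-exo over C-exo with its standard error (x axis) for the 24 hypoxia-linked guide strands (grey) and the 3 tested arms of miR-21 and miR-210 (red). Most of the list lies above 0, and miR-210-3p and miR-125b-5p lie lowest, at -1.12 and -1.09.

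A list of 19 miRNAs linked to ischemic conditioning or to the heart had a median log2 fold change of 0.22, with 11 above 0, against the median of -0.05 and the 197 of 404 above 0 over all tested miRNAs. By the criterion of the study, with all 6 libraries, 4 of them were called, miR-126a-3p of endothelium and the red-cell pair miR-144-3p and miR-144-5p higher and miR-125b-5p lower in R-exo, all with an adjusted p of 0.46 (edgeR's quasi-likelihood test). These are 3 higher and 1 lower of 19, where 1.98% of all tested miRNAs were called higher and 7.43% lower. The list was chosen with earlier results of these data known. The study had itself taken miR-126a-3p and miR-144-3p from this sequencing to a PCR measurement. Both arms of miR-144 come from the same stem-loop. The calls in the list are therefore no independent result. miR-126a-3p, miR-144-3p and miR-144-5p were named after their values were seen, whereas miR-125b-5p was named by the rule for the hypoxia-linked list. The median of the list was 0.84 without C-exo replicate 3, against 0.01 over all miRNAs of that fit. The GC correction fitted only the 17 members with a sequence, so its median is not of the same set as the 0.22. It was 0.01, against -0.07 over all miRNAs of that fit. By the criterion of the study 1 of the 17 was then called higher and 1 lower.

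Markers of cells and tissues whose RNA plasma can hold also differed between the C-exo libraries. The summed level of 4 red-cell miRNAs was 198079, 92396 and 69274 CPM in C-exo replicates 1, 2 and 3 and 44535 to 74956 CPM in R-exo. Most of this sum was miR-486, with 195800, 89944 and 64400 CPM in C-exo and a log2 fold change of -1.07. The other 3 had log2 fold changes above 0, of 0.37 for miR-451-5p, 1.07 for miR-144-3p and 1.63 for miR-144-5p, so the sum does not describe the list as a whole. That of 4 leukocyte and platelet miRNAs was 5001, 3553 and 21386 CPM in C-exo and 11448 to 26858 CPM in R-exo. Its most abundant member, miR-142-5p, had 2444, 2321 and 18749 CPM in C-exo, whereas miR-223-3p was highest in C-exo replicate 1, at 793 CPM. The 7 striated muscle miRNAs summed to 2151, 3188 and 9820 CPM in C-exo and 1804 to 5971 CPM in R-exo. Of these, miR-1-3p had 308, 1146 and 7110 CPM in C-exo and miR-133b-3p, in the opposite order, 627, 272 and 142 CPM. The liver miRNA miR-122-5p had 28294 to 67045 CPM in C-exo and 28767 to 35620 CPM in R-exo, and the 2 arms of endothelial miR-126a summed to 4722, 7336 and 16772 CPM in C-exo and 20584 to 30332 CPM in R-exo. No marker was at 0 in all 6 libraries, and miR-208a-3p of striated muscle was at 0 in C-exo replicate 1. Their part in the levels of miR-21 and miR-210 was not tested.

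Over 11 further fits of all 6 libraries with another scaling, filter, test or block, the log2 fold change of miR-21-5p was between 1.04 and 1.39 and that of miR-210-3p between -1.27 and -0.84. Over those fits an unadjusted p under 0.05 was reached by miR-21-5p in 3, with limma-voom, with the replicate block and without a filter, and by miR-210-3p in 0.

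**Figure D5:**
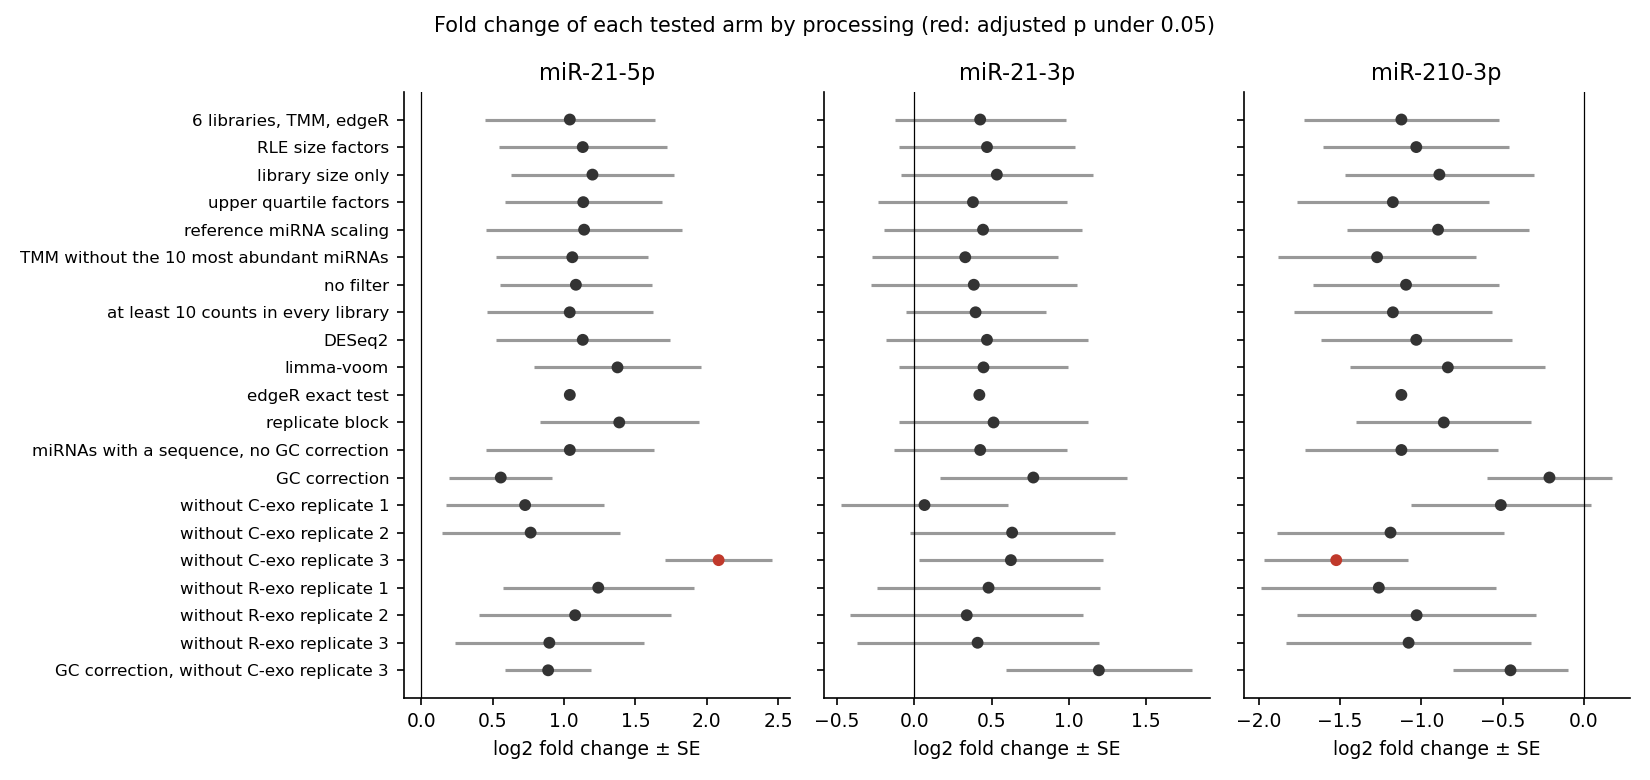
Log2 fold change of R-exo over C-exo with its standard error (x axis; the exact test gives none) for each tested arm under each fit (y axis), with red points for an adjusted p under 0.05. Red points appear only for miR-21-5p and miR-210-3p without C-exo replicate 3, and the GC correction brings miR-210-3p nearest to 0.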

How the data were processed

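Small RNA from plasma exosomes, pelleted by differential centrifugation, was sequenced after ligation of adaptors in 3 C-exo and 3 R-exo libraries. The authors deposited raw read counts per mature miRNA. The submitters' processing notes name bcl2fastq, BWA and build rn6. Trimming, miRNA database and mismatch rule are not given in the sources used here.

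Groups and replicate numbers were taken from the labels. Counts were filtered by group (minimum count 10, minimum total 15), scaled by TMM and tested with edgeR 4.0.16 in R 4.3.3 by the quasi-likelihood test with group as the only term, with Benjamini-Hochberg adjustment over 404 miRNAs. The code was tested on simulated data. Log2 CPM used a prior count of 2. Single values and ratios were compared by exact two-sided permutation. Wilson intervals cover 95%. Libraries held 5484209 to 7531737 counts, and no pair of libraries agreed within sampling noise. GC trends were fitted per library by loess (span 0.75) and given to edgeR as offsets. DESeq2 1.42.0, limma 3.58.1, other scalings and filters, a replicate block and leaving out each library were the alternatives.

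The arms, the lists and the tests were chosen with earlier results of these data known. Named miRNAs were the 4 arms, the 3 profiles nearest each guide, the neighbours by mean level of the tested arms, and hypoxia-linked list members meeting the criterion of the study. Markers, called members of the conditioning list, the nearest sequences and the antisense miR-3574 are named outside this rule, chosen after values were seen. Sequences and positions are those of RefSeq for GRCr8, and none was converted between builds.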

Additional observations from a re-analysis of the deposited data

How the results depend on the processing

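Every alternative kept the direction of the 3 tested arms (20 per arm) and of the ratios (8 per ratio). Leaving out 1 library gave log2 fold changes of 0.73 to 2.08 for miR-21-5p and of -1.52 to -0.51 for miR-210-3p (-0.45 with the GC correction and without C-exo replicate 3), and only without C-exo replicate 3 did either have an adjusted p under 0.05 in edgeR. miRNAs with an adjusted p under 0.05 numbered 0 in all fits of 6 libraries, edgeR, DESeq2 and limma-voom alike, and 0 to 132 when 1 library was left out, all above 0 being without C-exo replicate 3 (30 with the GC correction). By the fold change and unadjusted p criterion, 38 miRNAs met it in edgeR, 23 with reference miRNA scaling, 63 without a filter, 24 with the GC correction, 15 to 182 when 1 library was left out, and 100 with the GC correction and without C-exo replicate 3. Scaling by library size alone turned the split from 8 higher and 30 lower to 18 higher and 15 lower, and the median log2 fold change of all tested miRNAs from -0.05 to 0.10.

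No pairing by replicate number was seen, with deviations of same-numbered libraries correlated at -0.28 to 0.33 and 2 of 6 libraries correlated best with their own number. So few pairs cannot show whether the numbers pair the libraries. With the replicate number as a block, the log2 fold change was 1.39 for miR-21-5p (unadjusted p = 0.036 and adjusted p = 0.46 in edgeR), which then met the criterion, 0.51 for miR-21-3p and -0.86 for miR-210-3p, and 38 miRNAs met the criterion, 25 higher and 13 lower. Depth limits miR-210-5p, which had at most 8 reads in a library.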
